A study of Mus musculus with 2 samples.

Results

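Mitosis and the G2/M transition were followed through 49 genes, chosen by symbol from textbook roles in mitotic entry, spindle and kinetochore function, chromosome structure, protein destruction at anaphase and cytokinesis. The choice was made with earlier results of these data known. They are 49 of the 32285 genes in the count table, and all of them were found there. They were measured in 1 pooled droplet single-cell library of primary vascular smooth muscle cells (VSMCs) from C57BL/6 mouse aorta. Each of 4 cultures was stained before pooling with an antibody that carries its own DNA tag (cell hashing), so that a cell can be traced to its culture. The study's schematic numbers its groups without calling these numbers tags, and by them tag 1 is Young (mice of 12 weeks), tag 2 is Old (58 to 78 weeks), tag 3 is Young + AngII (angiotensin II, 100 nM for 48 h) and tag 4 is Old + siPiezo1 (an siRNA against Piezo1, 20 nM in the labels). The labels do not say whether the Old cells received the non-targeting siRNA, and they do not tell apart the donor animals or the 2 suppliers of cells that the methods name.

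Cells that prepare to divide first copy their DNA in S phase and then build up Cdk1 with its cyclin B partners. Active Cdk1, with the Aurora and Polo kinases, condenses the chromosomes and attaches them through kinetochores to the spindle. The anaphase-promoting complex then marks cyclin B and other proteins for destruction, and the cell divides at its middle. VSMCs of the healthy artery wall seldom divide, whereas VSMCs in culture and in the injured wall do. In many animals the genes of late G2 and mitosis share 2 short promoter motifs, the CHR, read by the MuvB complex with B-Myb or FOXM1, and the CCAAT box, read by the factor NF-Y.

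Barcodes with 200 genes and just over 2200 unique molecular identifiers (UMIs, each counting 1 RNA molecule) or more were taken as cells, which left 13045. Tag 1 held 3144 cells, tag 2 held 497, tag 3 held 1500 and tag 4 held 1529, with medians of 6817 to 10663 UMIs per cell. A further 5307 cells carried no tag above its cutoff and 1068 carried several. Tags 2 to 4 stood less clear of background than tag 1: the median count of the own tag was 364, 76, 113 and 67 UMIs in the cells of tags 1 to 4, against 10, 15, 31 and 20 in cells without a tag. Each group is 1 culture, so no test between groups was made. Levels are counts per 1000000 gene UMIs (CPM) with exact Poisson 95% intervals, ratios have exact binomial intervals, and all intervals cover counting error only. Piezo1, the siRNA target, was at 71.6, 89.6, 108 and 86.9 CPM in tags 1 to 4. The intervals of tags 2 and 4 overlapped, so this gene gives no check on tag 4, and its cells are named here only as labelled siPiezo1. The VSMC markers Acta2 and Tagln were at 174 to 568 and 415 to 957 CPM, while Myh11, a marker of the mature contractile cell, was at 1.94 to 7.89 CPM. The endothelial marker Cldn5 had no UMI in any tag, and the leukocyte marker Ptprc and the epithelial marker Epcam had at most 0.134 CPM. Other markers on the same lists were not absent. The highest in tag 1 were the endothelial Kdr at 5.39 CPM, the macrophage Csf1r at 8.62 and the epithelial Krt19 at 9.04. Dcn, a fibroblast marker, was at 448 to 676 CPM.

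The promoters of the members show the 2 motifs that such genes are known to share. RefSeq promoters (GRCm38.p6, 250 bases before to 50 after the start of the gene) were at hand for 41 of the 49 members. A CHR-like match, TTTGAA or TTCGAA on either strand, was found in 31 of the 41 (75.6%), against 21.7% of the 27025 genes in the promoter table. At least 1 CCAAT, on either strand, was found in 31 of 41 (75.6%), against 41.1% of all genes. More than 1 CCAAT was found in 24 (58.5%), against 13.3%. Both a CHR-like match and more than 1 CCAAT were found in 20 members (48.8%), against 2.68%. The CHR-like matches of the members lay close to the start, with 69.6% of 46 matches beginning no more than 50 bases before it, against 25.2% of the matches in all promoters. In a list of 40 S-phase genes, 30 had a promoter in the table. They held a CHR-like match in 20.0%, at least 1 CCAAT in 70.0% and more than 1 in 46.7%. Among further mitotic genes that are not members, 25 had a promoter. They held a CHR-like match in 68.0% and more than 1 CCAAT in 28.0%. In another list of 11 G2/M genes outside the members these shares were 81.8% and 72.7%, both above those of the members. These matches are a description of the letters in a window and not of bound sites.

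The promoters below are shown because they belong to the 4 members with the lowest and the 2 members with the highest level in tag 3 against tag 1, among members with 1 promoter in the table. They run 5′ to 3′ in the direction of the gene, and capitals mark the CHR-like matches and the CCAAT boxes on either strand. On the opposite strand a CCAAT box appears as ATTGG, and TTCGAA reads the same on both strands.
Cdkn3, chr14:46760291-46760590, plus strand: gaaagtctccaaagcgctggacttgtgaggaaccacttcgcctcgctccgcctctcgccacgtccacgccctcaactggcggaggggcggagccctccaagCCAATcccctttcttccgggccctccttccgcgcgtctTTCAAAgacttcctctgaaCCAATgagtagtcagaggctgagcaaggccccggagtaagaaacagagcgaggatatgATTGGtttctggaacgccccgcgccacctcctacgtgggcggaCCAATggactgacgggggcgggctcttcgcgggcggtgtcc
Ccnb2, chr9:70421505-70421804, minus strand: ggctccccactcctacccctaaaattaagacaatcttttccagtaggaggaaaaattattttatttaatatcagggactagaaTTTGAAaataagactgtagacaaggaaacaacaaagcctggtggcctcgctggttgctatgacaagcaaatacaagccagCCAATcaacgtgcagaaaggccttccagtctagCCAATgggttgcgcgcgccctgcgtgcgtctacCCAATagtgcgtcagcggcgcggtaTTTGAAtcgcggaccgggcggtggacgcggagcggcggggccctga
Aspm, chr1:139454523-139454822, plus strand: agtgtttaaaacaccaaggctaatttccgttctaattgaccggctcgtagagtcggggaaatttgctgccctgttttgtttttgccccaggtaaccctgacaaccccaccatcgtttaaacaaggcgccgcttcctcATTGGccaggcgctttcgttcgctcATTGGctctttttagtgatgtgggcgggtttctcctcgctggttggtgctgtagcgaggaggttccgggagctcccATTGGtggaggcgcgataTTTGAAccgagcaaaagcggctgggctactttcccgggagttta
Gas2l3, chr10:89443918-89444217, minus strand: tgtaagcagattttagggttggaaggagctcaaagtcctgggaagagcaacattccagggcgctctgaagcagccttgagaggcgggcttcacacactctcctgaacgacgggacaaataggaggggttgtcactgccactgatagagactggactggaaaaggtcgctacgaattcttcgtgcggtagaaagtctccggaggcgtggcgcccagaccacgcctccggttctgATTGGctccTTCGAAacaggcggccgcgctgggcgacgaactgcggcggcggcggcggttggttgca
Kif15, chr9:122950831-122951130, plus strand: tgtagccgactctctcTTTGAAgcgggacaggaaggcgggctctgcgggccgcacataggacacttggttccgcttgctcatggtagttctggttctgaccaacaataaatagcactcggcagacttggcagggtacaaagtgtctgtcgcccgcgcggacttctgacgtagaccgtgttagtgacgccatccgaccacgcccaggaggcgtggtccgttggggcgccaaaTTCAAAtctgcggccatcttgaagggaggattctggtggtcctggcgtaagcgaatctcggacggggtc
Hjurp, chr1:88277530-88277829, minus strand: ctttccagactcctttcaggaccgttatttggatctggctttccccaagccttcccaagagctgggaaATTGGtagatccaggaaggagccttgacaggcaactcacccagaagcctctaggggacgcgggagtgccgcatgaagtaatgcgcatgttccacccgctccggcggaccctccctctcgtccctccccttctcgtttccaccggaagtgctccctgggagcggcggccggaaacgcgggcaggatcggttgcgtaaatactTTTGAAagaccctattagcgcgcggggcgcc
Ccnb2 and Aspm hold 3 CCAAT boxes each and a CHR-like match beside the start, and Cdkn3 holds 4 CCAAT boxes with its CHR-like match further upstream. Gas2l3 holds 1 of each, close together. Kif15 holds 2 CHR-like matches and no CCAAT, and Hjurp holds 1 CHR-like match and 1 distant CCAAT. Over the 41 members, the median ratio of tag 3 to tag 1 was 0.606 in the 31 members with a CHR-like match and 0.583 in the 10 without one. It was 0.541 in the 24 members with more than 1 CCAAT and 0.634 in the 17 without.

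Summed over the 49 members, tag 1 had a level of 2268 CPM (2249 to 2287), tag 2 of 2081 (2044 to 2120), tag 3 of 1490 (1471 to 1510) and tag 4 of 2219 (2196 to 2242). Tag 3 stood lowest by far and tag 1 highest. No 2 of the 4 intervals overlapped, but they cover counting error and not the spread between cells or cultures. They therefore do not rank the 4 cultures, that of tag 3 included. Tag 3 had the lowest level of the 4 tags for 45 members. Tag 1 had the highest level for 30 members, tag 4 for 16 and tag 2 for 3. How often each tag was lowest or highest over all genes was not counted, so these counts describe the members only. The plot of levels by tag shows this for each member.

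**Figure D1:**
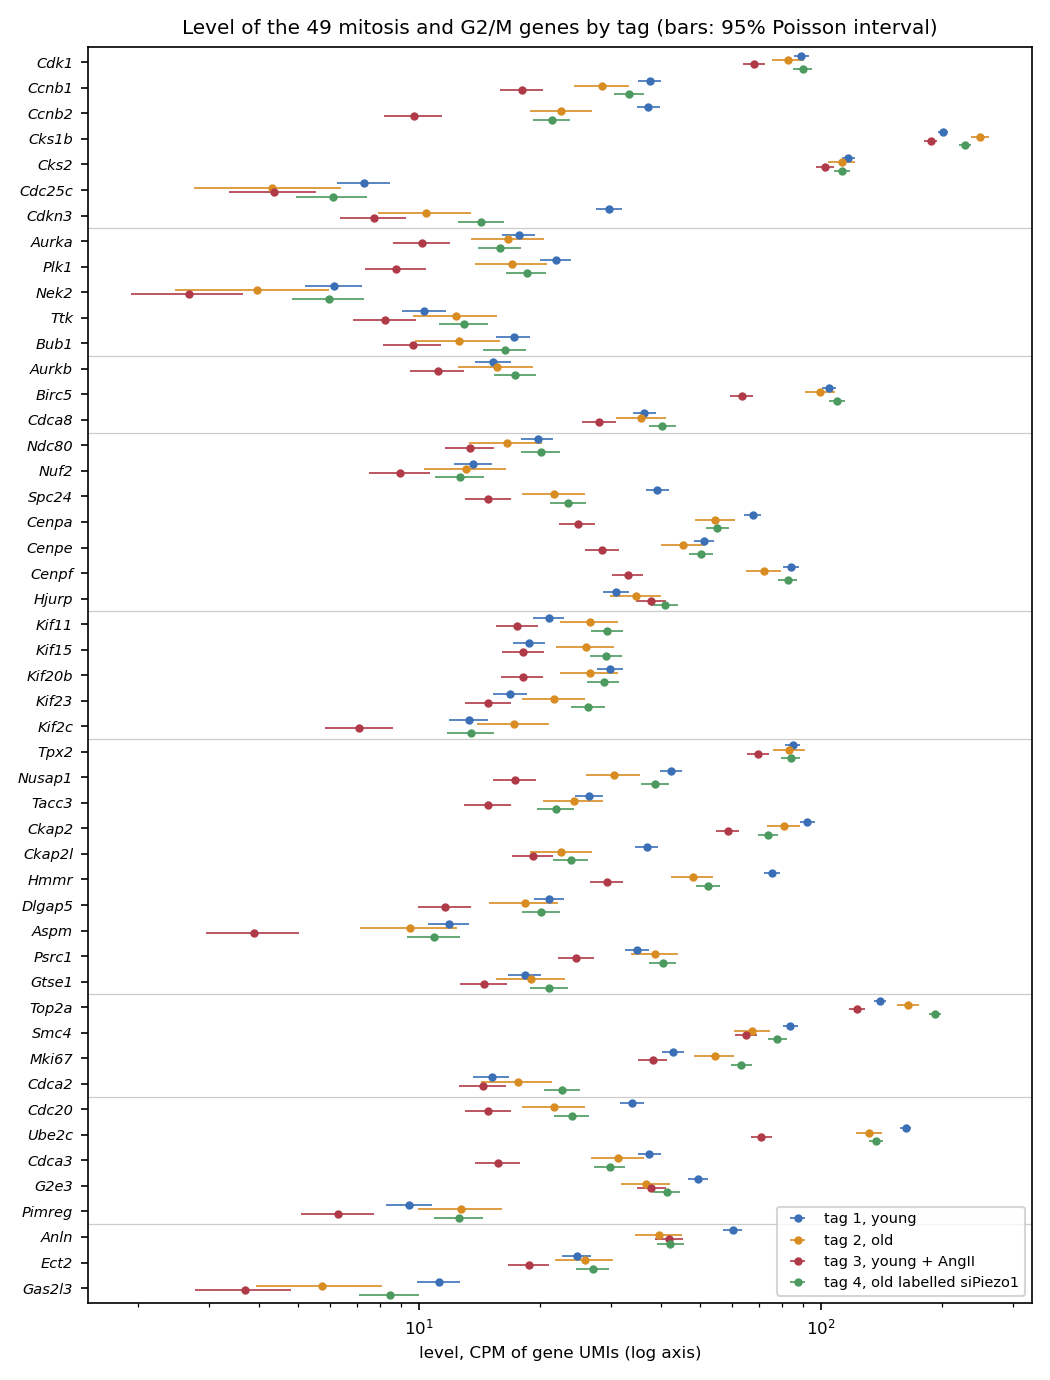
Level of each of the 49 members (CPM, log axis) in the cells of tags 1 to 4, with exact Poisson 95% intervals; grey lines part the 9 role groups. The point of tag 3 is the lowest of the 4 for 45 members, a count that was not made over all genes.

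The comparison of tag 3 with tag 1 asks what AngII treatment goes with in young cells. The summed level of the members was 0.657 (0.647 to 0.667) of that in tag 1. Of the 49 members, 28 were at or below 1/1.5-fold, where 9.48% of the 11166 genes with at least 200 UMIs in tagged cells were. No member was at or above 1.5-fold, where 7.84% of those genes were. The median ratio was 0.606 over the members and 1.02 over all genes tested. Of the members, 48 were below 1, and the interval lay wholly below 1 for 45 of them. No share of all genes stands beside these counts of 48 and 45, so they describe the members only. From here on, a ratio of tag 3 to tag 1 and its interval stand in brackets after the levels. At the edge of the fold, Pimreg had a ratio of 0.666 and Ndc80 of 0.680.

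Among Cdk1 and its partners, cyclin B2 and the phosphatase Cdkn3, which acts on Cdk kinases, stood furthest apart. Ccnb2 was at 37.1 CPM in tag 1, 22.6 in tag 2, 9.71 in tag 3 and 21.4 in tag 4, a tag 3 to tag 1 ratio of 0.261 (0.218 to 0.312). Cdkn3 was at 29.7, 10.4, 7.70 and 14.3 CPM in tags 1 to 4, a ratio of 0.259 (0.211 to 0.316). For both genes tag 1 was the highest tag and tag 3 the lowest, with no overlap of their intervals. Ccnb1, cyclin B1, was at 37.5, 28.5, 18 and 33.3 CPM (0.480, 0.417 to 0.551). Cdk1, the kinase they serve, was at 89.2, 82.8, 68.1 and 89.9 CPM (0.764, 0.708 to 0.823), so it differed less than its cyclins. Cks1b and Cks2, small subunits that bind Cdk kinases, were at 0.935 (0.892 to 0.980) and 0.876 (0.822 to 0.932) of tag 1. Cdc25c, the phosphatase that activates Cdk1, was at 7.30 CPM in tag 1 and 4.35 in tag 3 (0.597, 0.442 to 0.797).

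The kinases that drive mitosis were lower in tag 3 too, in 4 of 5 cases past the fold. Plk1, the Polo kinase, was at 21.8 CPM in tag 1, 17 in tag 2, 8.77 in tag 3 and 18.5 in tag 4 (0.401, 0.329 to 0.487). Aurka, Aurora A of the spindle poles, was at 17.7, 16.7, 10.2 and 15.9 CPM (0.576, 0.476 to 0.695). Tags 1, 2 and 4 overlapped for Aurka and tag 3 stood below them. Nek2, a centrosome kinase, was at 6.14 and 2.68 CPM in tags 1 and 3, and Bub1, of the spindle checkpoint, was at 17.2 and 9.64. Ttk, the checkpoint kinase that did not pass the fold, had a ratio of 0.801 (0.640 to 0.998). In the chromosomal passenger complex, which corrects faulty attachments, Birc5 (survivin) was at 105, 99.5, 63.4 and 110 CPM in tags 1 to 4 (0.606, 0.562 to 0.653). Its partners Aurkb, Aurora B, and Cdca8, borealin, were at 0.727 (0.601 to 0.875) and 0.771 (0.684 to 0.867).

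Of 7 kinetochore and centromere genes, 5 were past the fold. Cenpa, the histone H3 variant that marks the centromere, was at 67.5 CPM in tag 1, 54.5 in tag 2, 24.8 in tag 3 and 55.2 in tag 4 (0.367, 0.327 to 0.411). Cenpf, a kinetochore protein of late G2 and mitosis, was at 84.2, 71.9, 33.0 and 82.6 CPM (0.392, 0.355 to 0.433). Spc24, a subunit of the Ndc80 complex, was at 39.1, 21.7, 14.9 and 23.5 CPM (0.380, 0.327 to 0.440). For Cenpa and Cenpf tag 3 stood far below the rest, while Spc24 was also low in tags 2 and 4. Hjurp, the chaperone that loads Cenpa, went the other way: it was at 30.9, 34.6, 37.8 and 40.8 CPM, and at 1.22 (1.09 to 1.37) it was the only member with a tag 3 to tag 1 ratio above 1. The histone variant and its loader thus had ratios on either side of 1 in the same cells.

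Among 10 spindle genes, 7 were past the fold. Aspm, of the spindle poles, was at 11.9 CPM in tag 1, 9.50 in tag 2, 3.88 in tag 3 and 10.9 in tag 4 (0.328, 0.243 to 0.436). Hmmr, which binds hyaluronan and spindle microtubules, was at 75.3, 47.9, 29.3 and 52.4 CPM (0.388, 0.349 to 0.431). Nusap1, which bundles microtubules, was at 42.4, 30.5, 17.3 and 38.7 CPM (0.408, 0.354 to 0.468). Tag 3 stood lowest for all 10, and Tpx2, the activator of Aurka, was the closest to tag 1 at 0.820 (0.760 to 0.884). Of the 5 Kif genes, which encode kinesins, motor proteins of the spindle, Kif2c (0.535, 0.425 to 0.668) and Kif20b (0.606, 0.525 to 0.698) were past the fold. So was Cenpe, a kinesin counted above with the kinetochore genes, at 0.557. Kif15 was at 18.8 and 18.1 CPM in tags 1 and 3 (0.966, 0.828 to 1.13), and Kif23 was at 0.883 (0.746 to 1.04).

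The genes around the anaphase-promoting complex were the group with the lowest median ratio, 0.439, with 4 of 5 past the fold. Ube2c, its ubiquitin-conjugating enzyme, was at 162 CPM in tag 1, 132 in tag 2, 71.0 in tag 3 and 137 in tag 4 (0.438, 0.409 to 0.469). Cdc20, its activator, was at 33.9, 21.7, 14.9 and 24.0 CPM (0.439, 0.377 to 0.510). Cdca3, which helps to destroy the Cdk1 inhibitor Wee1, was at 37.4, 31.2, 15.7 and 29.8 CPM (0.419, 0.361 to 0.484). In cytokinesis, Gas2l3, which links actin with microtubules, was at 11.2, 5.74, 3.68 and 8.44 CPM (0.329, 0.242 to 0.441), while Anln and Ect2 were at 0.695 (0.632 to 0.764) and 0.761 (0.658 to 0.879).

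The 4 genes of chromosome structure formed the group with the highest median ratio, 0.884, and none was past the fold. Top2a, topoisomerase II alpha, was at 140 CPM in tag 1, 165 in tag 2, 123 in tag 3 and 192 in tag 4 (0.876, 0.827 to 0.927). Mki67, which coats mitotic chromosomes and is the usual marker of growing cells, was at 42.8, 54.3, 38.2 and 63.3 CPM (0.892, 0.804 to 0.989). For both genes tag 4 was the highest tag, and tag 3 lay near tag 1. Smc4, a condensin subunit, was at 0.776 (0.719 to 0.839) and Cdca2 at 0.951 (0.80 to 1.13). The plot of ratios sets the 3 comparisons side by side.

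**Figure D2:**
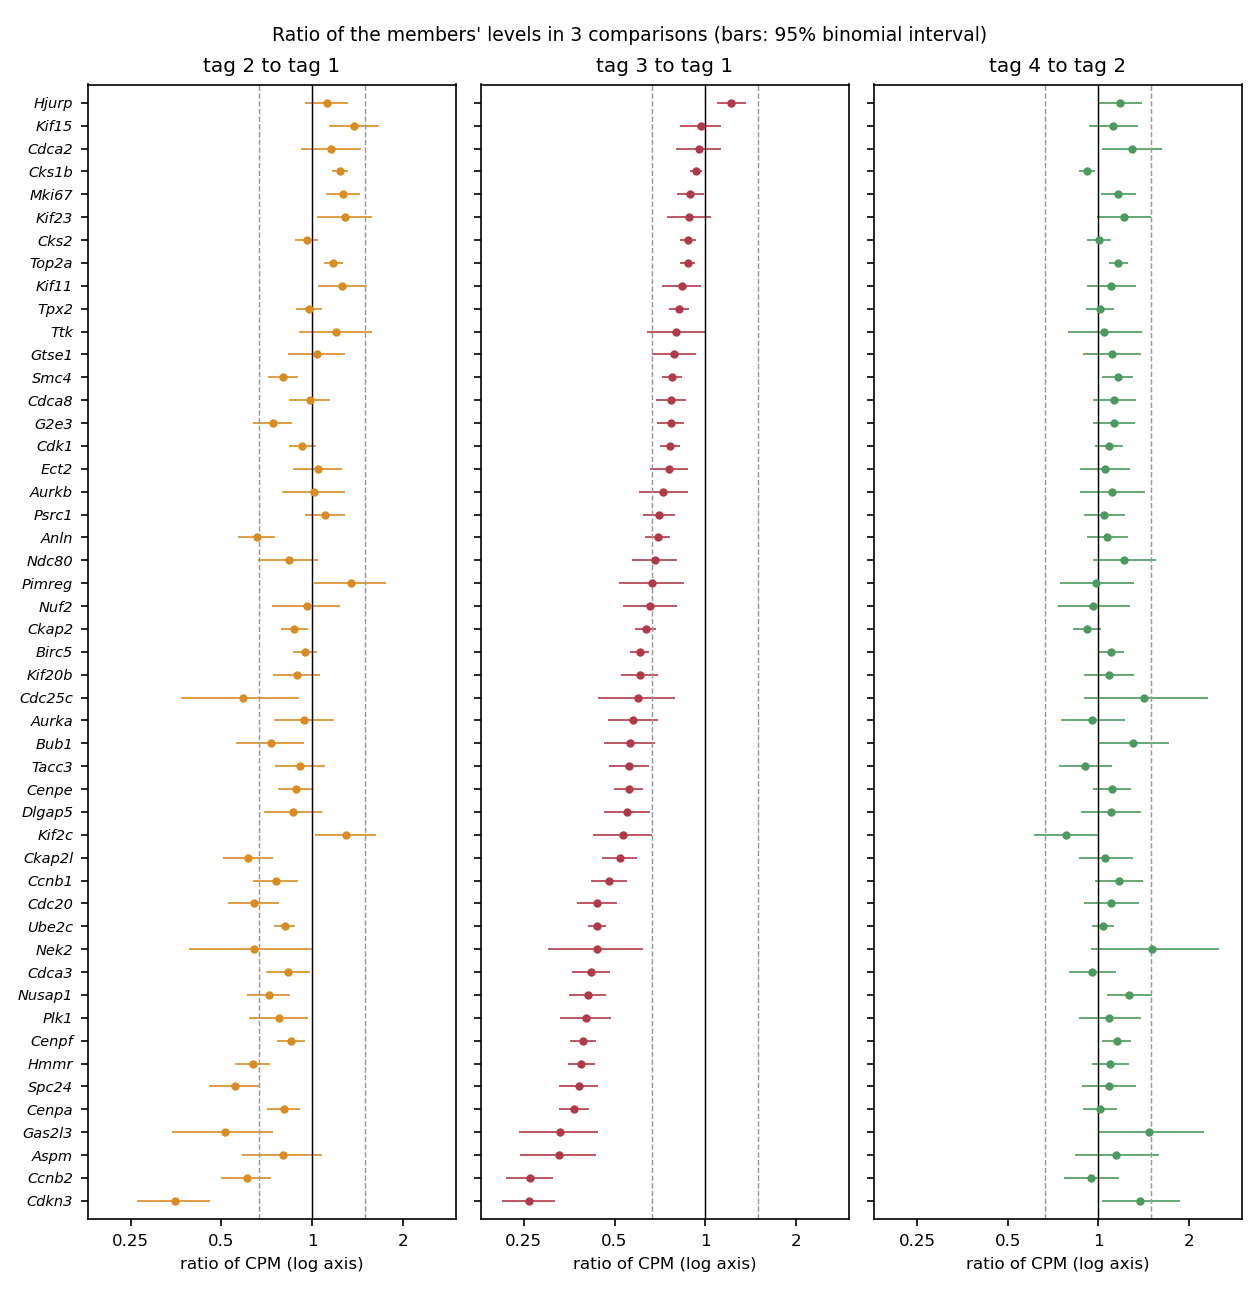
Ratio of CPM (log axis) of each member in tag 2 to tag 1, tag 3 to tag 1 and tag 4 to tag 2, ordered by tag 3 to tag 1, with exact binomial 95% intervals; dashed lines mark 1.5-fold either way. In the middle panel 28 members lie at or left of the lower dashed line, in the left panel 10 and in the right panel none.

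Other lists of cell cycle genes that hold no member gave other ratios in tag 3. Of 30 further mitotic genes, 29 had enough UMIs, and 7 of them were at or below 1/1.5-fold with none above 1.5-fold; their median ratio was 0.805. Kif20a, a kinesin of cytokinesis, was the lowest of them at 0.443 (0.362 to 0.540), and Prc1, which organises the spindle midzone, was at 0.565 (0.517 to 0.616). Of 40 S-phase genes, 39 had enough UMIs, and 18 were at or above 1.5-fold with none at or below 1/1.5-fold; their median ratio was 1.46. Ccne2, cyclin E2 of S-phase entry, was at 21.3 CPM in tag 1, 34.8 in tag 2, 64.2 in tag 3 and 38.8 in tag 4 (3.01, 2.70 to 3.36). Cdc6, which licenses replication origins, was at 5.31, 6.81, 13.2 and 7.57 CPM (2.49, 1.98 to 3.13). So tag 3 was the highest tag for both of these S-phase genes and the lowest for most members.

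A list of 19 regulators of cell cycle transcription held the genes of MuvB, B-Myb, FOXM1 and NF-Y. It also held E2f and Rb genes, so it is not limited to G2/M. Of the 19, 18 had enough UMIs, and 3 were at or above 1.5-fold in tag 3 and none at or below 1/1.5-fold. Mybl2, which encodes B-Myb, was at 3.98, 6.99, 8.71 and 6.21 CPM in tags 1 to 4 (2.19, 1.67 to 2.88). Foxm1 was at 8.25, 7.35, 7.23 and 8.88 CPM (0.877, 0.687 to 1.11), so its interval held 1. The other genes past the fold were E2f3 and Nfya, a subunit of NF-Y, at 1.55 (1.42 to 1.70) and 1.68 (1.40 to 2.02). Of 7 Cdk inhibitors, 4 were at or below 1/1.5-fold. Cdkn1c, p57, was at 24.9 CPM in tag 1, 8.79 in tag 2, 5.29 in tag 3 and 9.25 in tag 4 (0.212, 0.166 to 0.269). Cdkn1a, p21, was at 726, 678, 626 and 651 CPM (0.861, 0.840 to 0.883).

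Tags 3 and 1 also differed in their mitochondrial share. The median share of mitochondrial UMIs was 0.224% in tag 3, against 1.08% in tag 1, and 39.8% of tag 3 cells but 69.0% of tag 1 cells had at least 0.5%. Among the cells with at least 0.5%, the ratio of the summed members was 0.703 (0.687 to 0.719). Scrublet called like shares doublets, 22.3% of tag 3 and 23.3% of tag 1 cells, and without them the ratio was 0.613 (0.602 to 0.625).

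The members were then counted cell by cell, with each cell thinned to 5000 UMIs so that depth was equal, which left out 747, 21, 136 and 114 shallower cells of tags 1 to 4. The median cell held 3 of the 49 members in every tag. A cell with 10 or more members made up 31.8% (30.0 to 33.7) of tag 1, 24.4% (20.6 to 28.5) of tag 2, 21% (18.9 to 23.3) of tag 3 and 26.6% (24.3 to 29.0) of tag 4. Thinning to 2200 UMIs keeps the shallow cells of tag 1 but also makes 10 members harder to reach. The shares were then 13.0% (11.9 to 14.3), 14.1% (11.1 to 17.5), 3.93% (3.01 to 5.04) and 14.3% (12.6 to 16.2). So tag 1 no longer stood above tags 2 and 4, whose intervals overlapped its own, and tag 3 was still the lowest. At 5000 UMIs, a cell with 5 or more made up 44.1% (42.1 to 46.1), 37.6% (33.2 to 42.1), 39.7% and 36.8%. Cells with 9 or 10 members, near the limit of 10, made up 2.73% to 5.13% of a tag. A cell with 20 or more members made up 11.7% (10.4 to 13.0), 10.5% (7.90 to 13.6), 1.76% (1.13 to 2.61) and 11.2% (9.57 to 12.9). So tag 3 lay between the other tags in cells with 5 or more members and far below them in cells with 20 or more. Within the cells with 10 or more, the mean was 29.1, 30.4, 20.4 and 31.4 member UMIs in tags 1 to 4.

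**Figure D3:**
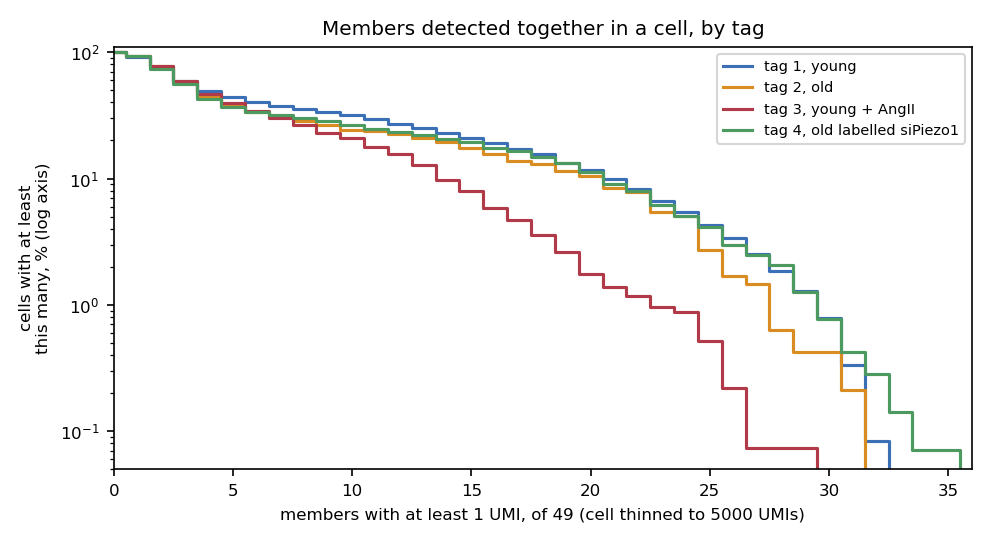
Share of cells (%, log axis) that hold at least the given number of the 49 members after thinning to 5000 UMIs, by tag. The line of tag 3 runs below the others from 10 members on, and at 20 members it stands at 1.76% against 10.5% to 11.7%.

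Single genes differed in how far the share of cells with any UMI was lower in tag 3. Top2a had at least 1 UMI in 31.1% (29.3 to 33.0) of thinned tag 1 cells and 29.8% (27.3 to 32.3) of tag 3 cells. Cdk1 had one in 26.2% (24.4 to 28.0) and 24.0% (21.8 to 26.4), and for both genes the intervals of tags 1 and 3 overlapped. Ccnb1 was found in 14.1% (12.7 to 15.6) and 7.48% (6.14 to 9.0), Cenpf in 21.6% (20.0 to 23.3) and 11.7% (10.1 to 13.6), and Aspm in 5.42% (4.55 to 6.41) and 1.32% (0.784 to 2.08). Free RNA also gives such UMIs: the members summed to 2095 CPM (2033 to 2158) in barcodes with 1 to 100 UMIs. No cell type that should lack these genes was at hand. The nearest measure is the cells low in both lists named next, where the members summed to 452 to 495 CPM in the 4 tags.

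To tell where in the cycle the members lay without using them, cells were scored on the 30 further mitotic genes and the 40 S-phase genes. The cells low in both lists (at most 1 mitotic and 3 S-phase UMIs after thinning) made up 44.0%, 51.7%, 37.5% and 49.9% of tags 1 to 4. The cells high in both (at least 4 and 8) made up 17.2% (15.7 to 18.8), 16.8% (13.6 to 20.5), 18.8% (16.7 to 20.9) and 21.8% (19.7 to 24.1). In those cells the members were at 6032, 5150, 3714 and 6262 CPM, and the tag 3 to tag 1 ratio was 0.616 (0.595 to 0.637). In the cells low in both it was 1.03 (0.965 to 1.11). Tag 3 thus had no smaller share of cells high in both lists than tag 1, and a lower level of the members within them. These cells were not alike in the lists, however. On average they held 6.42 mitotic and 16.01 S-phase UMIs in tag 3, against 8.11 and 12.87 in tag 1. How far this shift toward S-phase genes accounts for the ratio of 0.616 was not tested. Cells high in S-phase genes but low in mitotic ones made up 7.62% (6.27 to 9.16) of tag 3, against 2.09% (1.55 to 2.74) of tag 1. The reverse kind, high in mitotic genes only, was rare, with 63, 4, 6 and 15 cells in tags 1 to 4.

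A finer order came from the 1623 cells with at least 12 UMIs of both lists together, called list-high cells. They were parted by the mitotic share of those UMIs, with limits at 0.25 and 0.433 that put about equal numbers of the cells of tags 2 and 4 in each of 3 bands. The list-high cells made up 26.5% (24.8 to 28.3), 27.7% (23.8 to 32.0), 32.5% (30.0 to 35.0) and 29.1% (26.8 to 31.6) of tags 1 to 4. At the mitotic end stood 42.6% (38.7 to 46.6), 35.6% (27.5 to 44.4), 7.90% (5.56 to 10.8) and 32.5% (28.0 to 37.3) of them, in the same order. At the S-phase end stood 25.3% (22.0 to 28.9), 32.6% (24.7 to 41.3), 63.4% (58.8 to 67.9) and 34.5% (29.9 to 39.3). Tag 3 was apart from the other tags at both ends. The intervals of tag 2 overlapped those of tag 1 and of tag 4 at both. Because the limits were set on tags 2 and 4 together, nothing is drawn from how near these 2 lie to each other. The bands are ranges of a score and not cell types, and 37.8% of the list-high cells lay within 0.05 of a limit.

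Within the bands the members were still lower in tag 3 than in tag 1. At the mitotic end they summed to 7675, 7668, 5389 and 8219 CPM in tags 1 to 4, from 271, 47, 35 and 134 cells. The tag 3 to tag 1 ratio was 0.702 (0.656 to 0.751). Its interval covers counting error and not the spread between the 35 cells of tag 3. The ratio was 0.720 (0.687 to 0.755) in the middle band and 0.678 (0.645 to 0.714) at the S-phase end. At the S-phase end tag 2 was at 2572 CPM (2362 to 2796) and tag 3 at 2335 (2255 to 2416), so their intervals overlapped. Tag 2 to tag 1 ratios were 0.747 (0.681 to 0.819) there, 0.867 in the middle band and 0.999 at the mitotic end. Over all list-high cells the tag 3 to tag 1 ratio was 0.515 (0.501 to 0.529), and 38 of the 49 members were at or below 1/1.5-fold there. In the same cells 12.5% of the 8830 genes with at least 50 UMIs were. Cells of a band can still differ between tags in how the lists make up the score, and whether that accounts for the ratios within bands was not tested. The limits of the bands, like the bands themselves, were chosen after these data had been seen.

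**Figure D4:**
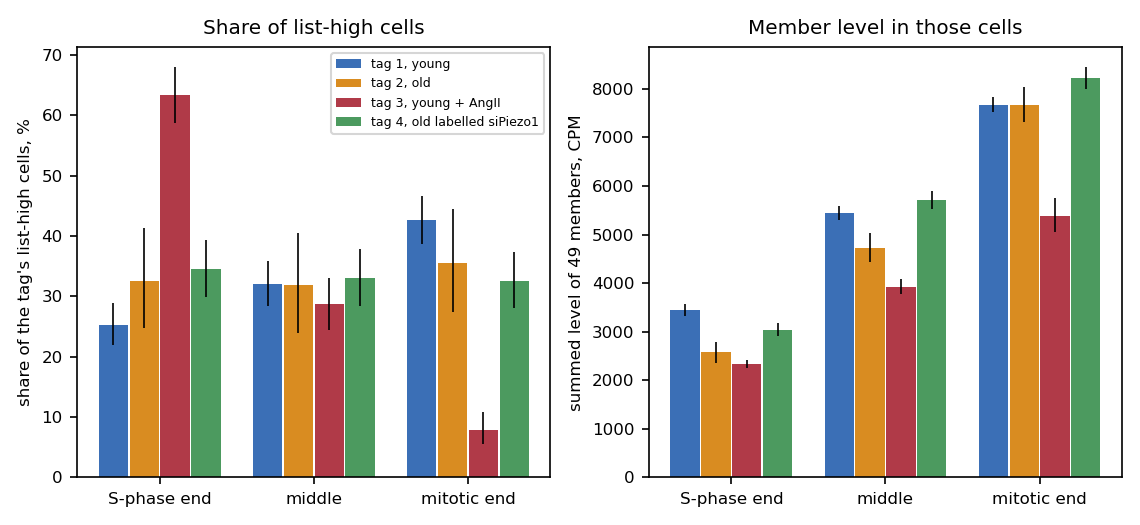
Left, share of each tag's list-high cells (%) in 3 bands from the S-phase end to the mitotic end, with exact binomial 95% intervals; right, summed level of the 49 members (CPM) in the cells of each band, with exact Poisson intervals. Tag 3 holds 63.4% of its list-high cells at the S-phase end and 7.90% at the mitotic end, and its bar is the lowest in every band of the right panel.

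The place of a member in this order went with its tag 3 to tag 1 ratio. The place was taken as the level at the S-phase end over the level at the mitotic end in tags 2 and 4 alone, which take no part in that ratio. Aspm was the most mitotic, at 0.0783 (0.0205 to 0.213), followed by Cenpa at 0.146 (0.10 to 0.208), and Cks1b was the least, at 0.686 (0.590 to 0.797). Of the 16 members with the lowest place, 15 were at or below 1/1.5-fold in tag 3, with a median ratio of 0.413. Of the 16 with the highest place, 5 were, with a median of 0.763. Over the 49 members Pearson's r between the 2 log ratios was 0.694 and Spearman's rho 0.676; members share cells and library, so this is a description. Ccnb2 and Spc24 stood off the trend, with places of 0.356 (0.222 to 0.555) and 0.489 (0.318 to 0.740) beside ratios of 0.261 and 0.380. The place was also taken from the classes above over all 4 tags, and r was then 0.746 and rho 0.733. There, 63 of the 88 mitotic-high cells were of tag 1 and 104 of the 228 S-phase-high cells of tag 3. Cells of tags 1 and 3 thus entered both the place and the ratio, so a positive r was partly built in. With the place taken from 73 mitotic-high and 192 S-phase-high cells without a tag, r was 0.621 and rho 0.653.

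**Figure D5:**
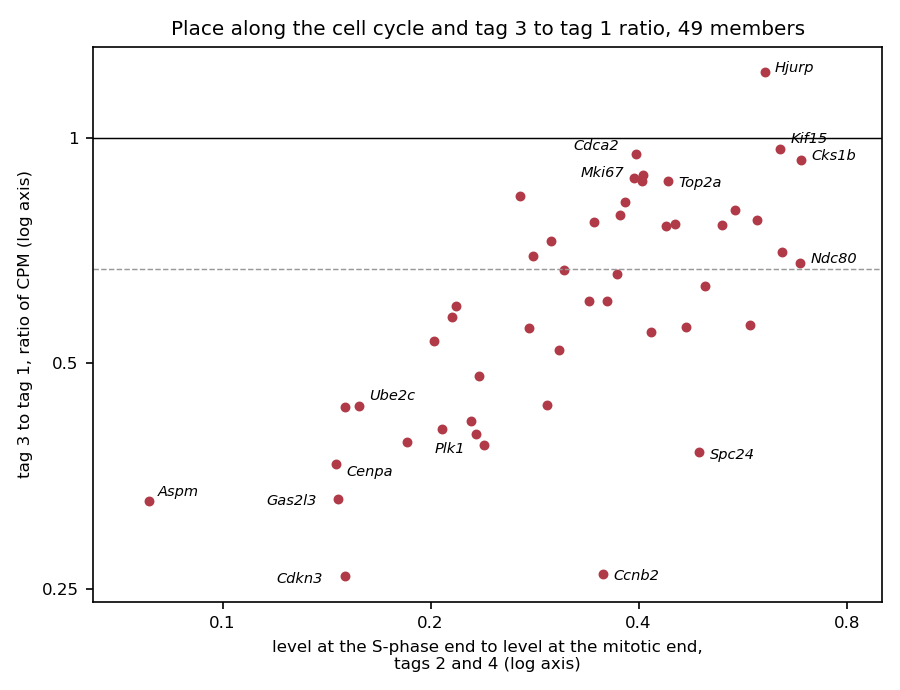
Tag 3 to tag 1 ratio of CPM of the 49 members (log axis) against their place along the cycle, the level at the S-phase end over that at the mitotic end in tags 2 and 4 (log axis); lines mark a ratio of 1 and of 1/1.5. The points run from Aspm, Cenpa and Cdkn3 at the lower left to Kif15, Cks1b and Hjurp at the upper right, and Ccnb2 and Spc24 lie below the rest.

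The comparison of tag 2 with tag 1 asks how old cells differ from young ones. It shares tag 1 with the comparison above. The summed level of the members was 0.918 (0.899 to 0.936) of that in tag 1. Of the 49 members, 10 were at or below 1/1.5-fold, where 12.1% of all genes tested were, and none was at or above 1.5-fold, where 9.96% were. The median ratio was 0.886 over the members and 1.02 over all genes tested. The intervals of 21 members held 1, a count without a share of all genes beside it.

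The 10 members were Cdkn3 at 0.350 (0.263 to 0.458), Gas2l3 at 0.513 (0.344 to 0.741), Spc24 at 0.554 (0.455 to 0.670), Cdc25c, Ccnb2, Ckap2l, Hmmr, Cdc20, Nek2 and Anln at 0.655 (0.566 to 0.756). All of them but Anln were also at or below 1/1.5-fold in tag 3, where 28 of the 49 members were. Both comparisons have tag 1 as denominator, and the overlap over all genes was not counted, so nothing is drawn from it. Among the 5 Kif genes of the members, 4 intervals lay above 1: Kif15 was at 1.38 (1.14 to 1.67), Kif2c at 1.30 (1.02 to 1.63), Kif23 at 1.29 (1.04 to 1.58) and Kif11, the motor that pushes spindle poles apart, at 1.26 (1.04 to 1.52). None of these 4 was past the fold. The share of all genes with an interval above 1 is not given, so nothing is drawn from this count. Cenpe, the kinesin of the kinetochore, was at 0.886 (0.771 to 1.02). None of the 7 kinesins on the list of further mitotic genes had an interval above 1, and Kif20a was at 0.663 (0.510 to 0.851). Top2a and Mki67 were at 1.18 (1.09 to 1.27) and 1.27 (1.11 to 1.44). Of the 39 S-phase genes, 4 were at or above 1.5-fold and 2 at or below 1/1.5-fold.

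Tags 1 and 2 also differed in the sex of the donors: 4.90% of tag 1 cells but 63.0% of tag 2 cells had Xist and no Y-linked UMI. In turn, 54.1% of tag 1 cells but 19.5% of tag 2 cells had Y-linked UMIs and no Xist UMI. Among such cells alone, 1700 in tag 1 and 97 in tag 2, the ratio of the summed members was 0.653 (0.622 to 0.685) and 33 members were at or below 1/1.5-fold, where 18.2% of all genes in those cells were. Among the 2649 and 179 cells with a top tag at least 3 times as high as the second, the ratio was 0.721 (0.696 to 0.745) and 25 members were at or below 1/1.5-fold, against 14.3% of all genes. Named by the highest normalized tag count, tag 2 held 573 cells, the ratio was 0.937 (0.919 to 0.955) and 6 members were, against 11.3% of all genes. The size of this difference and the count of members thus differed with the choice of cells, which changed both tags. Age, donor and sex cannot be told apart here. Whether the Y-linked cells of tag 2 came from the old culture or carried a wrong tag was not tested. Under the same 3 choices of cells the tag 3 to tag 1 ratio was 0.595, 0.622 and 0.653, and 55.5% of tag 3 cells had Y-linked UMIs and no Xist UMI there.

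The comparison of tag 4 with tag 2 asks how old cells labelled siPiezo1 differ from old cells. It shares tag 2 with the comparison of old and young. The summed level was 1.07 (1.04 to 1.09) of that in tag 2. Nek2, at 1.51 (0.943 to 2.52) on 3.94 and 5.96 CPM, was the only member at or above 1.5-fold, where 3.78% of all genes tested were, and its interval held 1. No member was at or below 1/1.5-fold, where 2.17% were. Intervals of 39 members held 1, again without a share of all genes beside this count. The 9 above 1 included Top2a at 1.17 (1.08 to 1.26), Mki67 at 1.17 (1.02 to 1.33), Cenpf at 1.15 (1.03 to 1.29) and Nusap1 at 1.27 (1.07 to 1.51), and the 1 below was Cks1b at 0.918 (0.863 to 0.977). In cells with a top tag at least 3 times as high as the second, the summed ratio was 1.24 (1.19 to 1.29). Those cells numbered 482 in tag 4 and 179 in tag 2. Among cells with Y-linked UMIs and no Xist UMI, 211 in tag 4 and 97 in tag 2, the summed ratio was below 1, at 0.875 (0.825 to 0.928), and 4 members were at or above 1.5-fold and 7 at or below 1/1.5-fold. In those few cells 11.0% and 9.36% of all genes were, so neither count of members stood far from that of all genes. They were a minority, since 66.8% of tag 4 and 63.0% of tag 2 cells had Xist and no Y-linked UMI. Whether they carried a wrong tag was not tested. At the mitotic end of the list-high cells the summed ratio was 1.07 (1.02 to 1.13). It was 1.21 (1.13 to 1.30) in the middle band and 1.18 (1.08 to 1.30) at the S-phase end.

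Across single cells the members varied together to different degrees. Over the 5652 thinned cells with 1 tag, the correlation of a member with the sum of the others (log2 of UMIs + 1) was highest for Top2a (Pearson's r 0.681), Ube2c (0.677) and Birc5 (0.634). It was lowest for Psrc1 (0.0486), Gtse1 (0.168), Nek2 (0.187) and Cdc25c (0.203). Psrc1, a spindle protein, was at 34.9, 38.5, 24.6 and 40.4 CPM in tags 1 to 4, so its low r did not go with few UMIs. In tag 3 the r was 0.621 for Top2a and 0.549 for Ube2c, against 0.656 and 0.694 in tag 1. The 3 other genes most like the summed members were Pclaf (0.684), which binds the replication clamp, Hmgb2 (0.668), a chromatin protein, and Prc1 (0.607), among 3265 genes with at least 50 CPM. Stmn1, which takes microtubules apart, was at 0.586, and H2afz, a histone variant, at 0.574. Each cell shares its free RNA and reads across these genes, so r is given without a test. The summed VSMC markers had an r of 0.0253 with the summed members.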

How the data were processed

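One droplet library of 4 hashed VSMC cultures was analysed. The authors deposited raw UMI counts for genes and hashtags, made with Cell Ranger 4 per the file headers, with no filter on cells. For their genome build and annotation, nothing was given in the sources used here. Columns outside those mapped to the pool numbered 0. Tag n was given where only the n-th hashtag exceeded its cutoff (36, 52, 61 and 41 UMIs). Barcodes with 1 to 100 UMIs gave the profile of free RNA. Scrublet in scanpy 1.11.5 called 23.4% of cells doublets at an expected rate of 0.1, and they were kept.

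Counts were summed over the cells of a tag and divided by all their gene UMIs. Genes with at least 200 UMIs in tagged cells were compared, and past the fold means a ratio of at least 1.5 either way. Counts of intervals that lay above 1, lay below 1 or held 1 are given without a share of all genes. They also depend on how many UMIs a gene has. Thinning drew 5000 UMIs per cell without replacement. The code for ratio intervals was run on simulated sums per tag, drawn from the Poisson model that the intervals assume. The thinning code was run on a simulated matrix. These runs check the code and cannot tell whether the intervals are wide enough for real cells, which differ in these genes. No test between groups was made, since each group is 1 culture and cells are not replicates. Members were described by role, and genes outside the members come from the fixed lists or are the 10 most alike across cells. The members and lists were chosen with earlier results of these data known. The bands, the limit on mitochondrial UMIs and the naming by the highest normalized tag count were added after the data were seen. Gene and promoter names were matched by symbol. In GENCODE vM21 (GRCm38) only Anln overlaps another listed gene, Gm48646, on its strand; Ccnb1 and Ccnb2 have processed pseudogenes that could take some of their reads.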

Additional observations from a re-analysis of the deposited data

Results flagged for a closer look

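The 5307 cells with no tag above its cutoff enter no comparison, yet their summed level of the 49 members was 2528 CPM (2512 to 2543). It drew attention because it lies above the levels of both untreated groups, 2268 CPM in tag 1 and 2081 CPM in tag 2. These cells had a median of 6968 UMIs and a median mitochondrial share of 1.72%, and 46.7% of them had Xist and no Y-linked UMIs. Which cultures they came from was not tested.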

How the results depend on the processing

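Of 133 values under alternatives for 17 results, 80 moved by less than counting error (for counts, by less than 1.5 times), 52 moved further and 1 changed direction. The cause was not tested for any of them, except where a limit itself was changed. The tag 3 to tag 1 ratio of the summed members, 0.657, stayed below 1 in all 7 alternatives. It was 0.622 with the top tag at least 3 times the next, 0.613 without doublets, 0.611 in cells of 5000 to 20000 UMIs, 0.595 in cells with Y-linked UMIs and no Xist UMI, 0.703 in cells with at least 0.5% mitochondrial UMIs and 0.631 after thinning. At a fold of 2, 15 members were past it. The tag 2 to tag 1 ratio, 0.918, was 0.721 with the clearer tag, 0.816 in the range of depth, 0.653 in the Y-linked cells, 0.937 by normalized tag and 0.877 after thinning. Its count of 10 lower members became 25 with the clearer tag, 33 in the Y-linked cells, 6 by normalized tag and 1 at a fold of 2, and its count of 0 higher members became 1 without doublets and 1 in the cells with more mitochondrial UMIs. The tag 4 to tag 2 ratio, 1.07, was 1.24 with the clearer tag, 1.11 without doublets, 1.16 in the range of depth and, in the opposite direction, 0.875 in the Y-linked cells. Its count of 1 higher member became 10 with the clearer tag, 4 in the range of depth, 4 in the Y-linked cells, 2 with more mitochondrial UMIs, 3 after thinning and 0 at a fold of 2, and 7 were lower in the Y-linked cells. Where no share of all genes is given for a choice of cells or fold, these counts show only how a count moved.

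The share of cells with 10 or more members became, in tags 1 to 4, 44.1, 37.6, 39.7 and 36.8% for 5 or more, 11.7, 10.5, 1.76 and 11.2% for 20 or more, and 13.0, 14.1, 3.93 and 14.3% after thinning to 2200 UMIs, where the intervals of tags 1, 2 and 4 overlapped. It was 28.2% in tag 1 and 18.9% in tag 3 without doublets, 20.2% in tag 2 and 23.4% in tag 4 with the clearer tag, and 15.5%, 18.9% and 12.8% in tags 2, 3 and 4 in the Y-linked cells. In tag 3 it was 23.7% with more mitochondrial UMIs. The share of list-high cells at the mitotic end became 48.3% in tag 1 and 38.1% in tag 4 without doublets. It was 46.6% in tag 1 with more mitochondrial UMIs and 47.1% (23.0 to 72.2) in tag 2 in the Y-linked cells. That last interval is wide and holds the main value of tag 2, 35.6%. Tag 2 holds 497 cells, which limits every comparison with it, and no paired analysis was possible because each group is 1 culture and no result comes from a test.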
